A study of Drosophila melanogaster with 2 samples.

Results

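The genes bun and Madm were followed through the foxo binding map as a pair of partners in growth control. They are 2 of the 13945 protein-coding genes in the annotation. They were chosen by name after foxo regions along bun had been seen in these data. Each gene was given the regions whose summit, the deposited point of highest signal, lay in its body or within 5000 bp of either end. The data came from chromatin immunoprecipitation and sequencing (ChIP-seq) of whole Drosophila melanogaster wandering larvae of the third instar, of pooled sex and unknown age. All larvae carried a stable transgene for foxo with green fluorescent protein (GFP) at its C-terminus. The chromatin was precipitated with an antibody against GFP. The 2 biological replicates, numbered 5 and 6, formed 1 group, so the data hold no contrast between conditions. The promoter of the transgene and the state of the native foxo gene are not stated in the sources used here. Whole larvae mix many tissues, so a weak region in many cells and a strong one in few cells cannot be told apart.

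The bunched gene, bun, encodes proteins of the TSC22 domain family, which end in a leucine zipper. Its long isoforms carry a large N-terminal extension and promote cell and organ growth in flies, an activity that the short isoforms do not share. Madm encodes an adaptor with a kinase-like domain, related to mammalian NRBP1, that binds the long Bun isoforms and acts with them in growth. Foxo is the transcription factor that insulin signalling holds out of the nucleus, and in mammals a relative of bun, the TSC22D3 gene that encodes GILZ, is a known target of FOXO3.

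The authors' lists gave each region a signal on a scale that is not stated, which is used below only within a list. The list thresholded by irreproducible discovery rate (IDR) held 1427 regions, and these were exactly the 1427 strongest of the pooled list. The pooled list and each replicate list held 30000 regions, so their sizes do not reflect depth, and read numbers were unknown. In replicate 5 only 1061 regions had a q-value of at most 0.01, against 6870 in replicate 6.

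The bun span held 9 IDR summits and the Madm span none. The bun gene (FBgn0259176) lies on the minus strand of chromosome 2L from 12455540 to 12546611 in dm6 (Release 6), a body of 91.1 kb. All 9 summits lay within this body, and the flanks held none. Across protein-coding genes 20.0% had at least 1 IDR summit in the same span, and 37.7% of the 443 genes whose span was 0.5 to 2 times as long as that of bun. Only Eip75B, an ecdysone-induced nuclear receptor gene, with 11 summits and Raf, the kinase gene of the Ras pathway, with 10 had more, and tara had 9 as well. These 4 genes make up 0.0287% of the protein-coding genes. Since bun was chosen for its regions, its place in this order is a description.

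**Figure D1:**
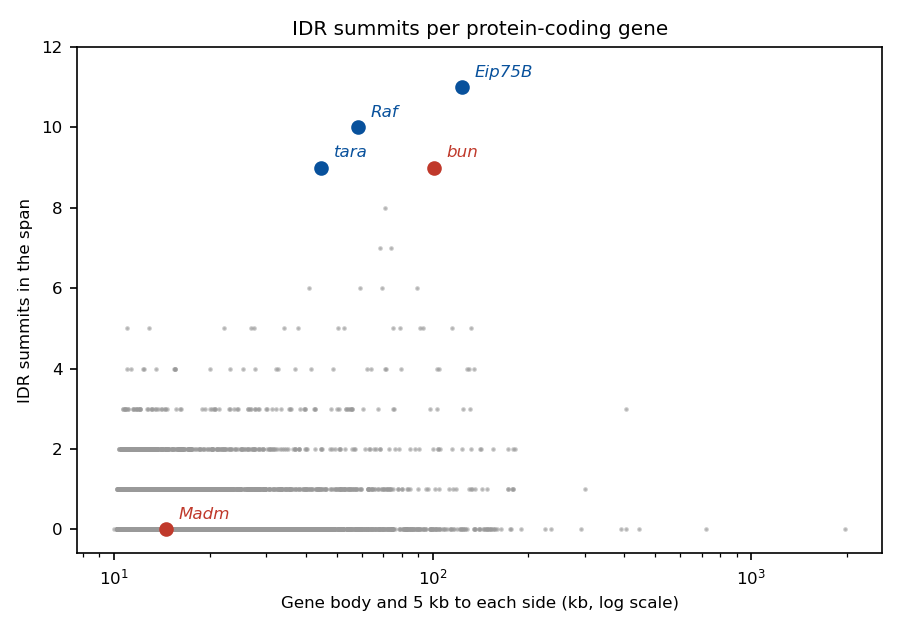
IDR summits (vertical axis) against the length of the gene body with 5 kb to each side (horizontal axis, kb, log scale), 1 grey point per protein-coding gene. Red points mark bun, with 9 summits in 101 kb, and Madm, with none in 14.6 kb. Blue points mark the 3 other genes with 9 or more.

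The weaker lists gave bun a high density as well. Per 10 kb of span, bun had 0.89 IDR summits against 0.107 over the 6 chromosomes. It had 73 pooled summits, or 7.22 per 10 kb against 2.24 genome-wide. Replicate 5 listed 68 (6.73 per 10 kb) and replicate 6 listed 76 (7.52 per 10 kb), against the same 2.24. At least 1 summit in the span is the common case in these long lists, with 87.0% of protein-coding genes in the pooled list, 89.7% in replicate 5 and 86.0% in replicate 6. Among the 443 genes of similar span, bun ranked 8 by IDR density, and 7, 7 and 9 in the pooled, replicate 5 and replicate 6 lists. Each replicate list thus held a dense run of regions along the gene, though 34 of the 73 pooled summits had a region within 150 bp in both. The pooled list contains the IDR regions, and bun was chosen for its regions. These densities are therefore a description and not separate support.

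Sequence around 5 of the IDR summits shows how varied these sites were. They are given as 100 bp to each side of the summit, from dm6, on the minus strand, which is the strand of bun transcription, 5′ to 3′. Capitals mark matches, on either strand, to TGTTTAC (the FOXO core), RYAAAYA (a general forkhead consensus, with R for a purine and Y for a pyrimidine), GAGAGAG (the GAGA element) or TGATAAG (the site of GATA factors). No window touches an annotated exon. The first holds the sole FOXO core of the set, the second a run of forkhead words upstream of a short start, the third the region of highest signal, the fourth a GAGA tract and the fifth no match.
Intron 71.2 kb into bun, chr2L:12475324-12475524: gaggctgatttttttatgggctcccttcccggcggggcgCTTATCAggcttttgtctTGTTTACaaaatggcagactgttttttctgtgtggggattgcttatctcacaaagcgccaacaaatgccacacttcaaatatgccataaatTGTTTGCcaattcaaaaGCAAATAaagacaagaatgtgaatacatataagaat
Upstream of bun-RB, chr2L:12484020-12484220: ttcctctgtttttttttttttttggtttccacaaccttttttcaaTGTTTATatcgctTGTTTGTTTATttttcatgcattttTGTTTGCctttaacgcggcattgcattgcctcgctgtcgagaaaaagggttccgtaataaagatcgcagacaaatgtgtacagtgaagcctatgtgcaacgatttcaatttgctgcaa
Upstream of t-cup, chr2L:12497749-12497949: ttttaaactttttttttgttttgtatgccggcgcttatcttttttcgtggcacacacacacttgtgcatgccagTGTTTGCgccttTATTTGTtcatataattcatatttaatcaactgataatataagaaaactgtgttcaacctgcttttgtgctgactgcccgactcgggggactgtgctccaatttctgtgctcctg
Upstream of CG43051, chr2L:12507680-12507880: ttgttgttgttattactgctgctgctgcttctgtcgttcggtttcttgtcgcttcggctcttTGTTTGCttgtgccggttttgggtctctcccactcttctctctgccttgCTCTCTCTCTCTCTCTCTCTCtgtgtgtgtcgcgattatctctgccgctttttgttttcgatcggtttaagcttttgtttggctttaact
Intron 32.6 kb into bun, chr2L:12513881-12514081: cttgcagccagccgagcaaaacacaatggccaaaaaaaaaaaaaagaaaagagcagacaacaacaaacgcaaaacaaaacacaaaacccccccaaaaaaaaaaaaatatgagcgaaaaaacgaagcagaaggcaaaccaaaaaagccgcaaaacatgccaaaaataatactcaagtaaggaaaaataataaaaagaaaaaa

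The 10 annotated bun transcripts begin at 7 starts. The 4 long transcripts, with coding sequences of 3291 to 3993 bases, begin at the 5′ end of the gene (bun-RA, bun-RF and bun-RG, at 12546611) or 5709 bp further in (bun-RP, at 12540902). The 6 short transcripts, with coding sequences of 567 to 762 bases, begin 41779 to 85355 bp downstream of the most 5′ start. All 10 share the 5′ end of their last exon. All 5 short starts lie in introns of long transcripts.

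**Figure D2:**
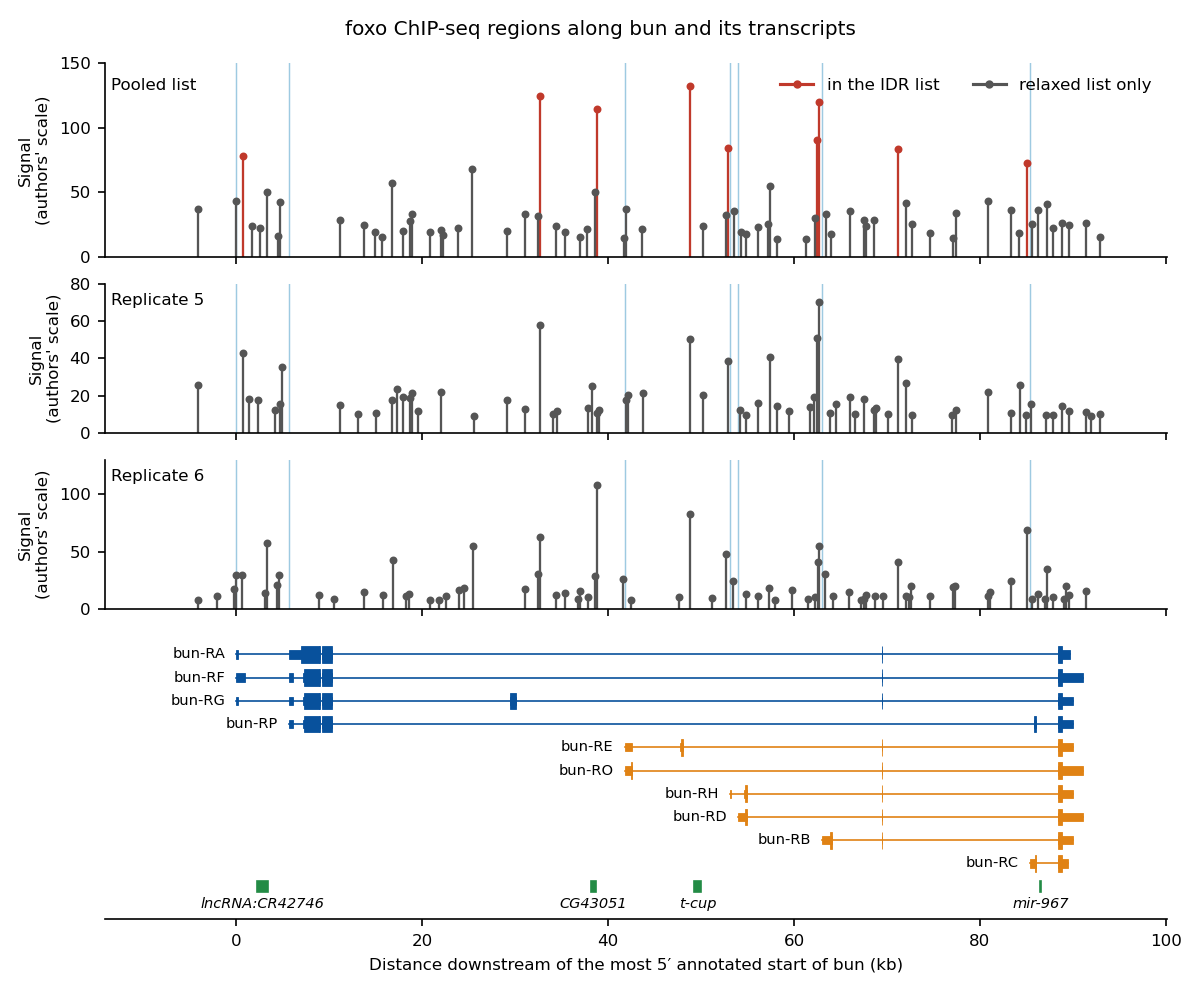
Signal of every region (vertical axes, authors' scale, which differs between the panels) against distance downstream of the most 5′ start of bun (horizontal axis, kb), for the pooled list and each replicate, with the transcripts below (blue long, orange short, tall boxes coding, green genes inside bun). Pale lines mark starts, and red stems mark the 9 IDR regions, 8 of which lie in introns.

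Of the 9 IDR summits, 3 (33.3%) lay within 500 bp of a bun start, where 740 of all 1427 IDR summits (51.9%) lay that near to a start of any gene. These 2 shares are not like measures, since the first leaves out starts of genes inside bun. The IDR summit at 12507780 lay 159 bp from such a start, that of CG43051. Counted by start, 3 of 7 bun starts had an IDR summit, where 5.61% of the starts of all protein-coding genes had one. All 3 were starts of short transcripts, with the summit upstream. A further summit lay 531 bp upstream of one of them.

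The start of bun-RB, which encodes 219 codons, had a pair of neighbouring summits 288 and 531 bp upstream. The nearer one (12483687 to 12484066, summit 12483877) had a pooled signal of 120 and rank 336. Its match in replicate 5 had a signal of 70.0 and rank 270, and in replicate 6 a signal of 54.4 and rank 713. The farther one (12483930 to 12484309, summit 12484120) ranked 726 in the pooled list, 525 in replicate 5 with a signal of 50.8 and 1567 in replicate 6 with a signal of 40.8. The summits are 243 bp apart and the 2 intervals overlap. Replicate 5 and replicate 6 both listed this pair. The farther window held 4 forkhead matches, the first at base 46 of the printed sequence, and the nearer window held 1.

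The start of bun-RH, which encodes 226 codons, had an IDR summit 247 bp upstream (12493554 to 12493933), with a pooled signal of 84.1 and rank 864. In replicate 5 the match lay 10 bp away with a signal of 38.7 and rank 1027. In replicate 6 it lay 139 bp away with a signal of 48.3 and rank 1009, and it was nearer to another, weaker pooled summit 447 bp upstream of the start (pooled signal 32.6). None of the 5 motifs searched, the fifth being the DNA replication-related element TATCGATA, was within 100 bp of the IDR summit.

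The start of bun-RC, the shortest transcript with 189 codons, had an IDR summit 331 bp upstream (12461397 to 12461776), with a pooled signal of 72.7 and rank 1261. This was the lowest of the 9. Replicate 6 ranked it 340 with a signal of 68.8. Replicate 5 ranked its match, 80 bp away, 27113 with a signal of 9.55 and −log10 q of 0.139, near the bottom of its list. The region therefore rests on replicate 6. Its window held 4 forkhead matches and no FOXO core.

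The remaining 2 short starts had weaker regions alone. At the shared start of bun-RE and bun-RO the pooled list had a summit 165 bp downstream (signal 36.8, rank 5649) and another 46 bp upstream (14.4, rank 27936). Replicate 5 had its best region 376 bp downstream (signal 20.5, rank 4987) and replicate 6 at 148 bp upstream (26.0, rank 4429). At the start of bun-RD the pooled list had a summit 279 bp downstream with a signal of 18.9 and rank 18287. Replicate 5 listed a region 232 bp downstream (signal 12.1, rank 16985), and replicate 6 had none within 500 bp.

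The starts of the long, growth-promoting transcripts had no IDR summit within 500 bp. The nearest was 728 bp downstream of the first start (12545693 to 12546072, summit 12545883), in the first exon of bun-RF and the first intron of bun-RA and bun-RG. It had a pooled signal of 77.7 and rank 1054. Replicate 5 ranked it 818 with a signal of 42.8, and replicate 6 ranked it 3339 with a signal of 29.8. Its window held 8 overlapping matches to GAGAGAG. Its sequence lies in an exon and is not printed.

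At the first start itself the pooled list had a summit at 0 bp with a signal of 42.8 and rank 4159. Replicate 6 had a region 6 bp upstream (signal 29.4, rank 3427). The nearest region of replicate 5 was the one 741 bp downstream. At the start of bun-RP no list had a summit within 500 bp, and the nearest pooled summit was 1066 bp upstream. The share of starts of protein-coding genes with a pooled summit within 500 bp was 49.9%, and 6 of the 7 bun starts had one. In replicate 5 the share was 42.7% and in replicate 6 it was 54.3%, and 5 of the 7 had one in each. Over all 73 pooled summits, 19 were nearest to a long start and 54 to a short one. The long starts lie within the first 5709 bp of the gene, so most of the 101 kb span is nearer to a short start. The split was not set against those lengths, and no preference for short starts can be read from it.

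The other 4 IDR summits were deeper in introns, and they included the highest signals. The highest of bun was 132 (12497659 to 12498038, summit 12497849, rank 253), 4352 bp upstream of the bun-RH start. It ranked 537 in replicate 5 with a signal of 50.4 and 186 in replicate 6 with a signal of 83.1. The nearest start of any gene was that of t-cup, a gene inside bun on the same strand (12496616 to 12497333), 516 bp away. Its window held forkhead matches at bases 75 and 87.

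The next had a signal of 125 (12513791 to 12514170, summit 12513981, rank 299), 32.6 kb into the gene and 5873 bp from the nearest start of any gene. It ranked 413 in replicate 5 with a signal of 57.7 and 450 in replicate 6 with a signal of 63.1, with summits 3 and 26 bp from the pooled one. The replicates placed this region alike. It held none of the 5 motifs and had a GC content of 33.8%.

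The region beside CG43051, a gene inside bun on the opposite strand that hosts a small nucleolar RNA, differed most between replicates. The pooled summit (12507590 to 12507969, summit 12507780, signal 114, rank 380) lay 159 bp upstream of the CG43051 start at 12507939. Replicate 6 ranked it 84 with a signal of 108, the highest region of bun in that list. Replicate 5 ranked its match 21127 with a signal of 10.9 and −log10 q of 0.188. The window held 8 overlapping GAGAGAG matches in the run printed in capitals, and 1 forkhead match at base 63.

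The fourth region, 8165 bp downstream of the bun-RB start (12475234 to 12475613, summit 12475424), had a pooled signal of 83.6 and rank 882. It ranked 980 in replicate 5 with a signal of 39.5 and 1518 in replicate 6 with a signal of 41.2. This was the sole IDR summit of bun with the FOXO core within 100 bp, at base 58 of the printed window and 43 bases from the summit, and it also held a GATA match at base 40.

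All 9 IDR summits of bun had a region within 150 bp in both replicates, as did 1324 of all 1427 (92.8%). Of the 9, 4 were among the 1427 highest regions of both, the summits 32.6, 48.8, 52.9 and 62.7 kb into the gene. Over all IDR regions 43.2% were among the highest in both, close to 4 of 9. Each replicate placed 9 of its own 1427 highest regions in the span, but they were not the same sites: 4 matched between the replicates within 150 bp. Of the 9 of replicate 5, 7 matched an IDR summit, and of the 9 of replicate 6, 6 did. Ranks differed at least 10-fold at 2 bun regions, both of them higher in replicate 6. Over the 1324 IDR regions matched in both lists 13.8% did so, 98 of them higher in replicate 6 (7.40%).

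**Figure D3:**
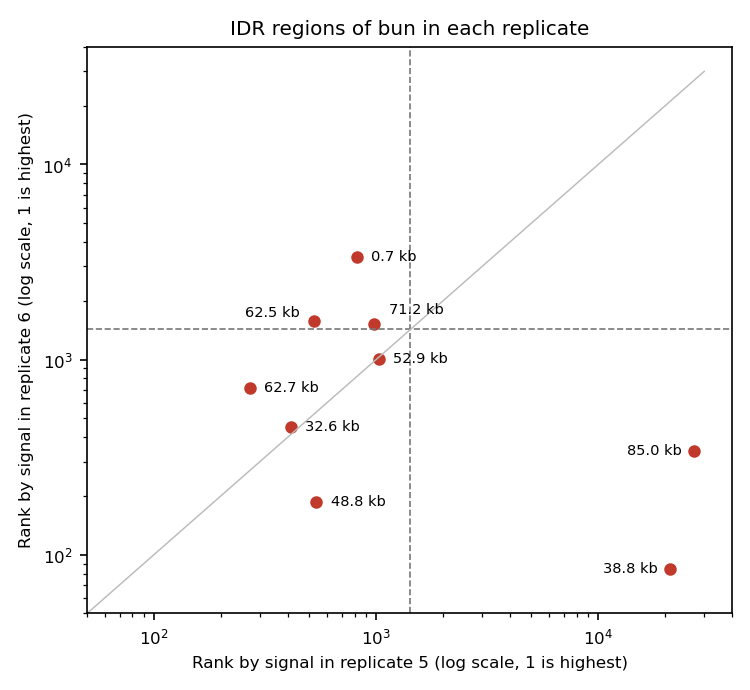
Rank by signal in replicate 5 (horizontal axis) and replicate 6 (vertical axis) of the 9 IDR regions of bun, both axes on log scales, labelled by distance downstream of the most 5′ start. Dashed lines mark rank 1427 and the grey line equal ranks; the regions at 38.8 and 85.0 kb rank 84 and 340 in replicate 6 and 21127 and 27113 in replicate 5.

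Some bun regions outside the IDR list ranked high in 1 replicate. The first pooled region below the IDR limit was 25.4 kb into the gene (summit 12521229, pooled signal 67.6, rank 1503), where the lowest IDR region of bun had 72.7 and the lowest of the whole IDR list 69.0. Replicate 6 ranked it 699 with a signal of 54.8, and replicate 5 had no region within 150 bp. At 3.3 kb, 130 bp downstream of the start of lncRNA:CR42746, a noncoding gene on the opposite strand, the pooled signal was 50.3 (rank 2943). Replicate 6 ranked that site 597 with a signal of 57.6, and replicate 5 had its nearest region 797 bp away. At 57.5 kb (summit 12489159) the pooled signal was 54.9. Replicate 5 ranked its region 907 with a signal of 40.8, and the nearest region of replicate 6, 152 bp from the pooled summit, had a signal of 18.4 and rank 8289. The sites at 25.4 and 3.3 kb held 3 and 2 GAGAGAG matches within 100 bp, and the one at 57.5 kb none. These 3 were picked after their values were seen, among 5 pooled regions of bun outside the IDR list with q-values of at most 0.01. The strongest of the 5 not picked, 16.8 kb into the gene (summit 12529860), had a pooled signal of 57.2 and rank 2229. It ranked 1373 in replicate 6 and 7019 in replicate 5, with 2 GAGAGAG matches.

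By intron, the 59.1 kb intron 4 of bun-RA, which separates the long N-terminal exons from those shared with the short isoforms, held 6 IDR summits (1.02 per 10 kb) and 7.95 pooled summits per 10 kb. Its last intron, of 18.9 kb, held 2 (1.06 per 10 kb) and 7.41 pooled summits per 10 kb. Its first intron, of 5.51 kb, held 1 and had 10.9 pooled summits per 10 kb. Between the starts of bun-RD and bun-RB, a stretch of 9.03 kb, the IDR density was 2.21 per 10 kb and the pooled density 11.1. Between those of bun-RP and bun-RE, 36.1 kb, they were 0.55 and 6.65. Each of these 2 stretches held 2 IDR summits, and those of the shorter stretch were the overlapping pair upstream of bun-RB. The pooled summits were on the whole spread along the gene, with a median gap of 921 bp.

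The widest gap between pooled summits, 6475 bp from 12535493 to 12541968, covers exons 2 to 4 of bun-RA and the start of bun-RP. Coding sequence made up 5.60% of the gene body and held 3 of its 70 pooled summits (4.29%) and 0 of 9 IDR summits. Untranslated exons made up 8.23% of bases and held 7 pooled summits. Introns made up 86.2% of bases and held 60 (85.7%). The classes of pooled summits in bun were thus near their shares of bases.

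The 73 pooled regions of bun had a median signal of 26.4, against 21.4 over the whole pooled list. Of the 73 pooled summits, 34 (46.6%) had a region within 150 bp in both replicates, against 31.5% of all 30000. In replicate 5 alone 15 had one and in replicate 6 alone 20, and 4 had neither. Pooled summits were 3.22 times as dense at bun as genome-wide, and the part of that density in the share was not tested.

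Over the 9 IDR windows of 201 bp, RYAAAYA was in 6, GAGAGAG in 2, TGTTTAC in 1, TGATAAG in 1 and TATCGATA in 0. Among windows of the same length at all IDR summits these were in 52.1%, 13.2%, 6.52%, 5.47% and 2.38%. At all 30000 pooled summits RYAAAYA was in 51.8%, GAGAGAG in 4.99% and TGTTTAC in 5.93%. The counts for 9 windows are too small to be set apart from these shares. With 3 taken as an approximate upper limit for a count of 0, 0 of 9 allows a share of about 33.3%, which is not a strict bound. The FOXO core is also a match to RYAAAYA read on the other strand, so the 2 are not separate. The 2 GAGA windows went opposite ways between replicates: the one beside CG43051 ranked higher in replicate 6 and the one near the long start higher in replicate 5.

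Madm (FBgn0027497) lies on the plus strand of 3R from 5742510 to 5747138, a body of 4.63 kb with 2 transcripts that share 1 start and encode the same 637 codons. No IDR summit lay in its span, and the nearest was 46617 bp from its start. IDR summits were present in the spans of 19.0% of the 12875 genes whose span was 0.5 to 2 times as long. Its 3 pooled summits came to 2.05 per 10 kb, near the genome-wide 2.24. Replicate 5 also listed 3 regions, and replicate 6 listed 6, or 4.10 per 10 kb, which is 1.83 times the genome-wide density.

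The highest pooled region of Madm lay at its promoter, 134 bp upstream of the start (5742186 to 5742565, signal 29.4, rank 8679). Replicate 5 had a region 191 bp upstream (signal 14.0, rank 12341, −log10 q 0.32), and replicate 6 had one 99 bp upstream (signal 22.1, rank 6027, −log10 q 2.26). Only in replicate 6 was the q-value at or below 0.01. The start of Sym, the symplekin gene of mRNA 3′ end processing, is 34 bp away on the opposite strand, and the pooled summit lay 100 bp inside Sym. This region cannot be assigned to Madm rather than Sym. Summits within 500 bp of a start were common, at 50.1% of protein-coding genes in the pooled list, 43.8% in replicate 5 and 54.6% in replicate 6, and at 6.25% in the IDR list. Of the 6983 genes that had one, 3999 (57.3%) had a higher best signal than Madm, and the median was 33.0.

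The other pooled Madm regions were near the bottom of that list. The pooled summits 4461 bp upstream and 2505 bp downstream of the start had signals of 14.1 and 15.0 and ranks 29003 and 26314. Neither had a region within 150 bp in replicate 5. The third region of replicate 5 by signal, 4523 bp downstream, had 9.03 (rank 29897). In replicate 6 the other Madm regions reached the middle of the list, the highest of them 4607 bp upstream of the start with a signal of 14.2 and rank 12573. Replicate 6 also had a region 100 bp downstream of the start (signal 12.7, rank 14751), in the untranslated part of the first exon, with a TATCGATA match in its window.

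**Figure D4:**
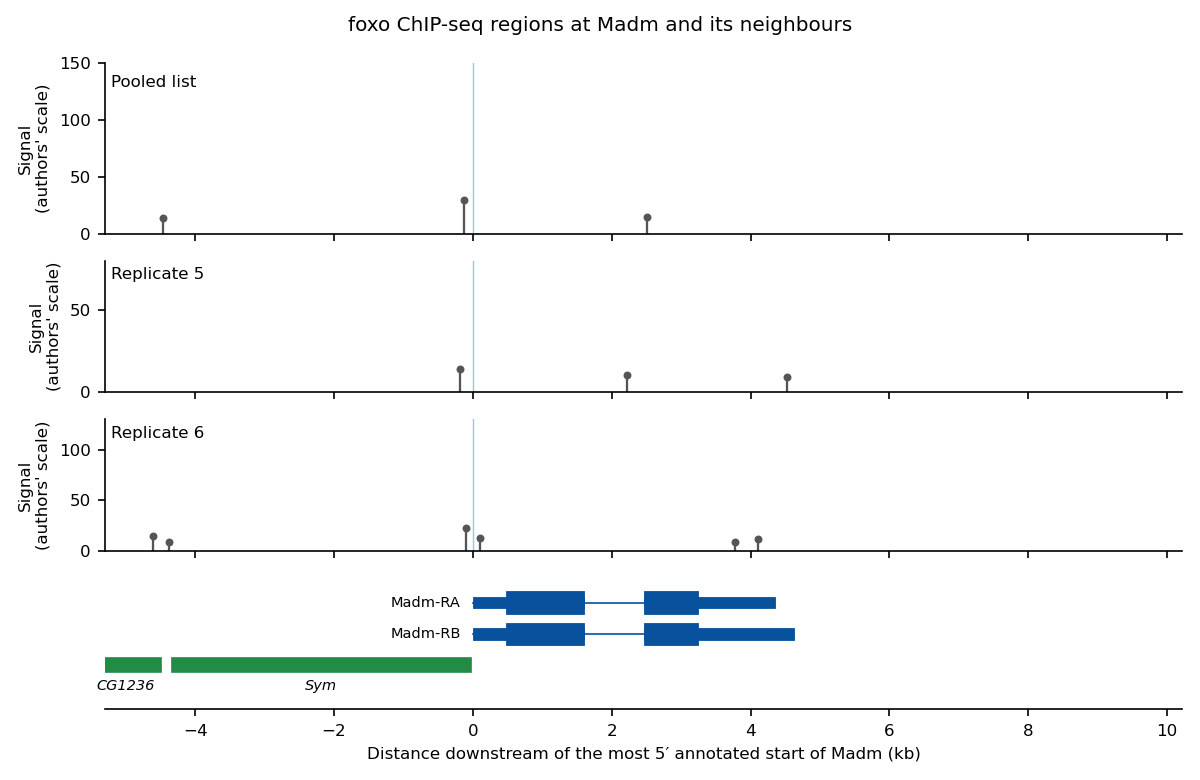
Signal of every region at Madm (vertical axes, authors' scale, with the same limits as in the map of bun) against distance downstream of its start (horizontal axis, kb), for the pooled list and each replicate, with the transcripts in blue and neighbouring genes in green. The highest pooled signal is 29.4, 134 bp upstream of the start, and no region is in the IDR list.

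Genes linked to the pair were read in the same spans. The list held the Madm partner Mlf, 5 genes of the WNK kinase pathway, which TSC22 and NRBP family proteins regulate in mammals, and genes of the Dpp, EGF receptor and Notch signals that act on or beside bun in fly tissues. It was drawn up with results of these data known. Of 25 genes asked for, 24 matched the annotation. An IDR summit lay in the span of 13 of 24 (54.2%), with a median of 1 summit, against 20.0% and a median of 0 over all protein-coding genes. The listed spans were longer, with a median of 22.3 kb against 12.2 kb.

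Mlf, the gene of the Madm-binding myeloid leukaemia factor, had no IDR summit and a best pooled rank of 7720. In the WNK pathway 2 of 5 had one. The fray gene, for the kinase that WNK activates, had its best of 2 in an intron, 827 bp downstream of a start (signal 90.1, rank 377 in replicate 5 and 8305 in replicate 6). Mo25, for a scaffold of such kinases, had a summit outside its body with a signal of 91.7 (rank 759 in replicate 5 and 5395 in replicate 6). Wnk, Ncc69 and kcc had none. Among the 18 signalling genes 11 had one. The Co-SMAD gene Med had the highest signal, 218, at a summit outside its body and 5158 bp downstream of its nearest start. The gene shn, for a zinc-finger factor of the Dpp pathway, followed with 206 at 189 bp upstream of a start, the inhibitory SMAD gene Dad with 163, the ETS repressor gene aop with 153 and the Dpp receptor gene tkv with 114. For these 5 the best region ranked within the first 708 of replicate 5 and the first 547 of replicate 6. They were named for their high pooled signal, so these ranks do not stand for all 11. For the rest of the 11, the best region ranked from 586 to 4088 in replicate 5. In replicate 6 the ranks ran from 588 to 5304, and the region of Egfr, the EGF receptor gene, had no match.

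The genes most like bun in the density of summits over the 4 lists were Eip75B, tkv, psq, shn and E2f1. Likeness was the distance over log2 of summits per 10 kb plus 0.1, among 442 genes of similar span, and it ran from 0.34 for Eip75B to 0.52 for E2f1. Eip75B had 11 IDR and 90 pooled summits in 124 kb. The tkv gene had 4 and 47 in 62.4 kb, and shn had 7 and 39 in 68.3 kb. The BTB protein gene psq had 6 and 42, and the cell cycle factor gene E2f1 had 5 and 43. The genes most like Madm were fat-spondin, BtbVII and Sfp93F, with distances of 0.11 to 0.15 among 12874 genes, each with no IDR summit and with 3, 4 and 2 pooled summits.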

How the data were processed

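Foxo binding was measured by ChIP-seq in 2 biological replicates, numbered 5 and 6 in the labels, which formed 1 group. The signal column deposited by the authors was the value of their peak caller for each region, on a scale not stated, and the significance column deposited by the authors was read as −log10 of a q-value. Per the file notes deposited with the samples, each relaxed list was made from alignments and a control, and the IDR list from the replicate lists and the pooled list. Neither aligner nor peak caller is named in the labels. The dm6 lists were analysed, the dm3 lists were not used, and the control itself was not analysed here. Read depth is unknown, so no interval for depth can be given.

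Genes came from Ensembl release 115 without transposable elements, and sequence from the RefSeq Release 6 genome, whose chromosome lengths covered the regions on all 6 chromosomes. Long bun transcripts had at least 1500 coding bases. Starts within 50 bp were merged. Summits matched within 150 bp, and a start had a summit within 500 bp. The antibody label names foxo, while the description names GFP. The members, lists and motifs were chosen with earlier results of these data known, so counts, ranks and distances are given without tests. Named genes and regions were the 2 members with every IDR region in their spans, the highest relaxed regions and those within 500 bp of a start, up to 6 linked genes by signal, and the genes of most similar density. Mlf, fray, Wnk, Ncc69, kcc and Egfr were named besides, after their values were seen, to account for their groups. The alternatives were other flanks, match distances, start distances and motif windows, the upper part of the IDR list and each replicate alone. Counting was tested on simulated data. Python 3.11.15 and NumPy 2.4.6 were used.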

Additional observations from a re-analysis of the deposited data

How the results depend on the processing

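The count of 9 IDR summits at bun and 0 at Madm was the same for the gene body alone and for flanks of 2000 and 10000 bp (a range of 9 to 9 at bun and 0 to 0 at Madm). The 1427 highest regions of each replicate alone also included 9 at bun and 0 at Madm, but not at the same sites. Of those at bun, 7 in replicate 5 and 6 in replicate 6 matched an IDR summit, and 4 matched between the replicates. The equal totals therefore do not show that the same summits recur. In the IDR list above its median signal, 4 of the bun summits remained. All 9 bun summits had a match in both replicates within 150 and 300 bp, but only 3 did within 50 bp. IDR summits near a bun start numbered 3 within 500 bp, 0 within 200 bp and 5 within 1000 bp, and pooled summits 11, 3 and 17, as the distances themselves set. Pooled summits at Madm numbered 3, with 1 in the gene body alone and 6 with flanks of 10000 bp. With 200 bp in place of 100 bp to each side, bun IDR summits with TGTTTAC went from 1 to 2 and with GAGAGAG from 2 to 4. Counts by long start were the same with 2400 coding bases as the limit. No paired analysis was possible because there was 1 group. Read depth is unknown, and the regions in single replicates were not tested for difference.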
